A study of Mus musculus with 4 samples.

Results

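The insulin-like growth factor 1 (IGF1) axis was examined in mouse embryonic fibroblasts (MEF cells) with and without topoisomerase 2β. The axis was taken as 10 named genes of the 54842 genes in the count table, found by converting the Ensembl identifiers to gene symbols, and comprised the ligand Igf1, its receptor Igf1r, the binding proteins Igfbp2 to Igfbp7, and the mRNA-binding proteins Igf2bp1 and Igf2bp3. Sequencing covered 2 wild-type (wt) and 2 Top2β-null MEF libraries, made from total RNA after removal of ribosomal RNA. Topoisomerase 2β, encoded by Top2b, is the type II DNA topoisomerase of non-dividing and dividing cells that passes one DNA duplex through another. Both genotypes were untreated. The paper gives a serum-containing medium for MEF cells and names no separate one for the Top2β-null cells. That all libraries shared the same external supply of growth factors is thus not stated outright. The Top2β-null MEF cells had been derived from null mice and had come from another laboratory than the wt cells, so the effect of the genotype and of the origin of the cells cannot be told apart. The labels do not say that the libraries of a genotype came from separate cultures, and p-values then measure only the spread between these libraries, which may be technical.

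As background, IGF1 is a secreted growth factor that binds the receptor tyrosine kinase IGF1R and drives cell growth and survival through the insulin receptor substrates, PI3 kinase, AKT and mTOR. Most extracellular IGF is held by the IGF binding proteins, which limit or prolong its access to the receptor and are themselves cleaved by dedicated proteases. The IGF2 mRNA-binding proteins act inside the cell on the stability, transport and translation of their target mRNAs, among them the Igf2 mRNA. Of these, IGF2BP1 and IGF2BP3 are named oncofetal because embryonic tissues express them and most adult tissues do not. Fibroblasts are a classic source of several IGF binding proteins.

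Library totals ranged from 133116830 to 149647278 counts over genes and repeat families, and the repeat families took 19.3% to 21.4% of them. Top2b itself measured 18259 and 18465 normalized counts in wt cells against 3879 and 3789 in Top2β-null cells. So 20.9% of the wt RNA level was left and the labels were borne out in direction. The paper reports a Western blot in which Top2β protein was absent from the Top2β-null cells. Of 10 fibroblast markers, 1 (Lum) stayed under 10 normalized counts in every library, and the summed level of the list ranged from 1301000 to 1325000 in wt and from 885700 to 890700 in Top2β-null libraries. The list did not move one way, with 4 markers called higher (Thy1, Pdgfra, Pdgfrb and Dcn) and 2 lower (Col1a1 and Col3a1) in Top2β-null cells. The summed leukocyte markers ranged from 2386 to 2462 in wt and from 1267 to 1271 in Top2β-null libraries. Cd68 alone was called lower (mean 1665 in wt and 296 in Top2β-null cells), Csf1r was not called (753 and 970 on average), and Tyrobp and Adgre1 were at 0 in every library. The summed pluripotent cell markers ranged from 14.5 to 16.2 in wt and from 730 to 792 in Top2β-null libraries, mainly through Sox2. Summed epithelial markers were 69.6 and 71.5 in wt and 19.7 and 20.8 in Top2β-null cells, hepatocyte markers were 8.07 and 12.6 against 22.8 and 19.8, and skeletal muscle markers were 88.8 and 139 against 3.11 and 0.99, with no marker of these lists called. Endothelial markers summed to 164 and 162 in wt and 252 and 257 in Top2β-null cells, with Kdr called higher (mean 70.1 and 204) and Tek not called (39.1 and 6.64). The part of these marker differences in the IGF axis values was not tested.

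The 10 genes divided evenly between genes called and genes not called, and 4 of the 6 binding protein genes were among those called. A call required an adjusted p below 0.05, a log2 fold change beyond 1 in either direction and a mean normalized count above 100. By these, 3 of the 10 genes were higher in Top2β-null cells (Igfbp2, Igfbp3 and Igfbp4), against 5.27% of all 26566 tested genes and repeat families. A further 2 of the 10 (Igfbp6 and Igf2bp3) were lower, against 4.97% of all tested features. The 10 genes were chosen with earlier results of these data known, so these shares describe the genes and do not test the axis. By the adjusted p alone, 6 genes were higher and 2 were lower, and this looser rule took 32.5% of all features as higher and 32.5% as lower. The median log2 fold change of the 10 genes was 0.22 and that of all features was 0.0027, whereas the median absolute log2 fold change was 1.56 for the 10 genes and 0.39 for all features. Because bulk RNA was measured, fewer cells expressing a gene and less RNA per cell cannot be told apart.

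**Figure D1:**
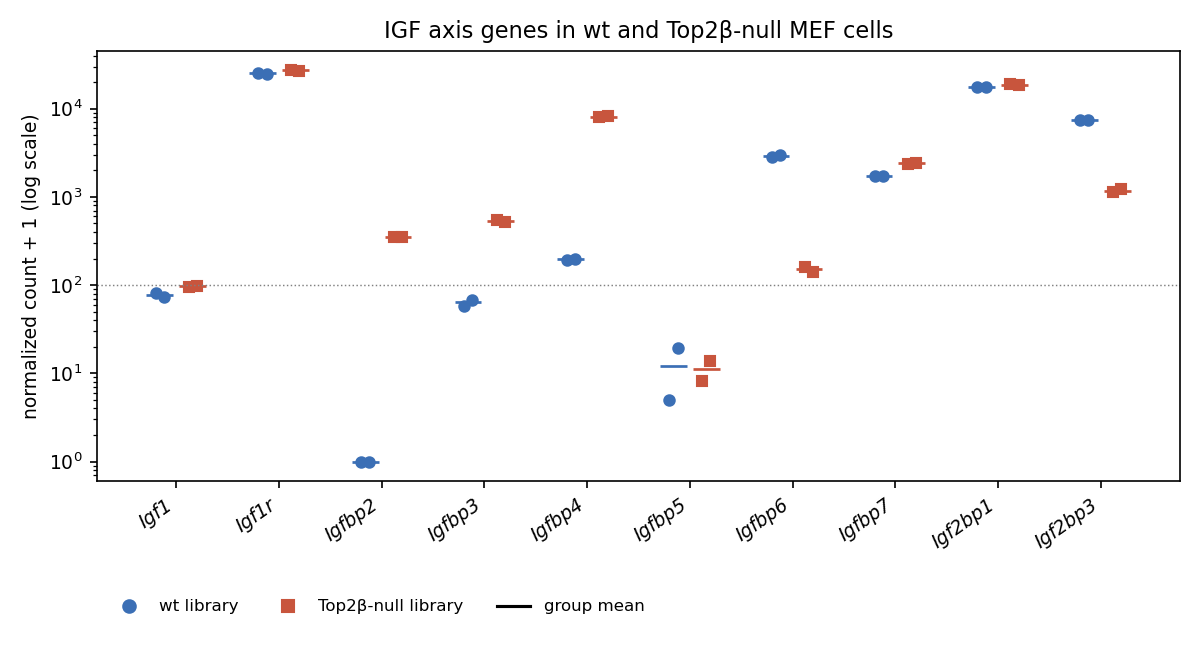
Normalized counts plus 1 (log scale) of the 10 IGF axis genes in each of the 2 wt libraries (circles) and 2 Top2β-null libraries (squares), with short lines at the group means and a dotted line at the mean-count cut-off of 100. The libraries of a genotype lie close together for every gene but Igfbp5, and Igfbp2, Igfbp3 and Igfbp4 sit higher and Igfbp6 and Igf2bp3 lower in the Top2β-null libraries.

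The DNA just upstream of the 5 called genes is shown first, since these genes carry the comparison. Each run gives the 250 bases before the RefSeq start site on the gene's own strand, 5′ to 3′, in build GRCm38.p6 as tabulated from RefSeq. RefSeq promoter entries were matched for 9 of the 10 genes by symbol, and Igf2bp1 had none. Capitals mark the letters of 3 motifs on either strand, namely TATAAA (named for the TATA box), GGGCGG (SP1) and CACGTG (E-box), which do not overlap each other here. Igfbp2 lies on the plus strand at chr1:72824230-72824479, Igfbp3 on the minus strand at chr11:7213924-7214173, Igfbp4 on the plus strand at chr11:99040994-99041243, Igfbp6 on the plus strand at chr15:102143936-102144185 and Igf2bp3 on the minus strand at chr6:49214955-49215204.
Igfbp2: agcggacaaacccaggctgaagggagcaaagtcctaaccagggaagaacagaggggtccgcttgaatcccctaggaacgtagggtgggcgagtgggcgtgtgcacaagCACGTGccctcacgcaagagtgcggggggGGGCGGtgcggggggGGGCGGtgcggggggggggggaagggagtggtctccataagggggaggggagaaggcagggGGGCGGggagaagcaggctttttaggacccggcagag
Igfbp3: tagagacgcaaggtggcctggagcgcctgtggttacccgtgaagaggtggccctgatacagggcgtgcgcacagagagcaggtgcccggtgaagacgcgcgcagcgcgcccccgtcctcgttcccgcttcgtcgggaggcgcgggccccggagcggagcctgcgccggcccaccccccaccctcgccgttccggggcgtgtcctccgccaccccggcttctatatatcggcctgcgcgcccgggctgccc
Igfbp4: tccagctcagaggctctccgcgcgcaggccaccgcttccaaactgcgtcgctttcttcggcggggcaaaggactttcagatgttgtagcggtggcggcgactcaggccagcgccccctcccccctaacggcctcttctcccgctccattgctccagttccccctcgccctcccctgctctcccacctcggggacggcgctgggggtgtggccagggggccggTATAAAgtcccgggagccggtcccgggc
Igfbp6: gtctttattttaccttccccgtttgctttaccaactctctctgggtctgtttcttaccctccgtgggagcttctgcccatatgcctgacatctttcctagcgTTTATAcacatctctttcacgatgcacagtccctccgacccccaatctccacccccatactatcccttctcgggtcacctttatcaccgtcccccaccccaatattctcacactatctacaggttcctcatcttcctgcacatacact
Igf2bp3: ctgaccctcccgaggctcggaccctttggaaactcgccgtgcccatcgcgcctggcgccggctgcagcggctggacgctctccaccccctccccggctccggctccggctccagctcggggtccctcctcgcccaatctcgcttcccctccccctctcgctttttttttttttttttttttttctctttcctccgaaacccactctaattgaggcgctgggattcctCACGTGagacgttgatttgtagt

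The motifs were searched on both strands of the whole 300-base RefSeq windows, from 250 bases before to 50 bases after the start site. The 3 genes that were higher shared none of the motifs searched. The Igfbp4 window held 1 TATAAA at position -28 from the start site, and 13.6% of all 32851 promoter windows hold one. The Igfbp2 window held 3 GGGCGG (35.7% of all windows hold at least 1) and 1 CACGTG (7.15% of all windows), and the Igfbp3 window held none of the 7 motifs searched. Of the lower genes, Igfbp6 held TATAAA on the reverse strand at position -148, with 2 CCAAT, and Igf2bp3 held 2 CACGTG at positions -23 and 5 and 1 CCAAT (37.4% of all windows). The other motifs searched were TGANTCA (AP-1, in 7.81% of all windows), GTAAACA (FOXO, 3.65%) and TTCNNNGAA (STAT, 8.3%), and these 3 were absent from the printed promoters. GC content was 67.0% in the Igfbp2, 71.7% in the Igfbp3, 71.3% in the Igfbp4, 49.7% in the Igfbp6 and 60.3% in the Igf2bp3 window, against a median of 52.7% over all windows, and the uncalled Igf1r (76.0%) and Igfbp7 (73.3%) were higher still. A second RefSeq window of Igfbp2 starts at position 72825137 and held 1 TGANTCA, and the Igfbp6 start site in GENCODE lies 176 bases downstream of the RefSeq one.

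Igf1, the ligand (chr10:87858265-87937042, plus strand), was scarcely transcribed in either genotype. It measured 80.7 and 72.4 normalized counts in wt and 95.3 and 98.1 in Top2β-null cells. Both Top2β-null libraries lay above both wt libraries, but the log2 fold change of 0.34 ± 0.186 (SE, n = 2 per genotype) did not pass edgeR's quasi-likelihood test (adjusted p = 0.126). The mean of 86.6 also fell under the mean-count cut-off. Igf1 ranked above only 9.41% of tested genes in wt and 8.89% in Top2β-null cells when levels were taken per kb of exon. Across the other settings tried, its adjusted p ran from 0.0661 to 0.413.

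Igf1r, the receptor tyrosine kinase that IGF1 and IGF2 activate (chr7:67952827-68233668, plus strand), was by contrast abundant. It measured 25372 and 25043 normalized counts in wt and 27251 and 27009 in Top2β-null cells. The Top2β-null libraries were again the higher pair, by 1.08-fold (log2 fold change 0.11 ± 0.0245, adjusted p = 0.00127), which is far under the fold cut-off. Per kb of exon, Igf1r stood above 83.5% of tested genes in wt and 84.9% in Top2β-null cells.

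The binding protein genes Igfbp2, Igfbp3 and Igfbp4 were higher in Top2β-null cells, and Igfbp4 had the largest values among them. IGFBP4 is a soluble binding protein that withholds IGF from its receptor until PAPP-A cleaves it. Igfbp4 (chr11:99041244-99054392, plus strand) measured 194 and 195 normalized counts in wt and 7999.5 and 8250.2 in Top2β-null cells. No library of one genotype came near the other, and the difference was 41.8-fold (log2 fold change 5.38 ± 0.0492, adjusted p = 3.31e-20). Per kb of exon, Igfbp4 moved from above 24.6% of tested genes in wt to above 86.8% in Top2β-null cells.

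Igfbp3, which encodes the main carrier of IGF in serum (chr11:7206086-7213923, minus strand), measured 57.5 and 67.6 normalized counts in wt and 548 and 514 in Top2β-null cells. It was thus low in both wt libraries and 8.49-fold higher in the Top2β-null pair (log2 fold change 3.08 ± 0.121, adjusted p = 1.59e-12). Igfbp2, a binding protein of fetal tissues and of many tumours (chr1:72824503-72852474, plus strand), had 0 counts in both wt libraries. Its counts in Top2β-null cells were 337 and 350, or 349 and 347 after normalization. With a floor of 3 counts per library set for wt, Igfbp2 was at least 117-fold higher in Top2β-null cells (adjusted p = 1.89e-12). When either Top2β-null library was left out, Igfbp2 no longer met the count filter of the test, because 1 library alone then held its reads.

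Igfbp6 went the other way. IGFBP6 differs from the other binding proteins in its preference for IGF2 over IGF1. Igfbp6 (chr15:102144362-102149511, plus strand) measured 2798 and 2960.5 normalized counts in wt and 162 and 141 in Top2β-null cells. Both Top2β-null libraries were far under both wt libraries, by 19.1-fold (log2 fold change -4.25 ± 0.072, adjusted p = 3.73e-17). Its place per kb of exon fell from above 90.4% of tested genes to above 39.5%.

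Igfbp7 and Igfbp5 were not called. Igfbp7 encodes a matrix-associated relative of the binding proteins that binds IGF weakly (chr5:77349240-77408041, minus strand). It measured 1735 and 1748 normalized counts in wt and 2389 and 2402 in Top2β-null cells. The genotypes did not overlap and differed by 1.38-fold (log2 fold change 0.46 ± 0.0438, adjusted p = 1.22e-07), under the fold cut-off. Igfbp5, which encodes a binding protein of bone and muscle that adheres to extracellular matrix (chr1:72857932-72874884, minus strand), measured 4.04 and 18.4 normalized counts in wt and 7.25 and 12.9 in Top2β-null cells. The Top2β-null values lay between the wt values, and the log2 fold change of -0.16 ± 0.594 (adjusted p = 0.83) changed sign to 0.22 without the first Top2β-null library. A difference in Igfbp5 was not detectable at these counts of 4 to 19 per library.

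The makeup of the binding protein mRNAs differed between the genotypes. Only RNA was counted in these libraries, so shares of protein were not measured. Levels of different genes were compared as normalized counts per kb of merged exon. Igfbp6 made up 63.2% ± 0.745 (SD, n = 2) of the summed level of Igfbp2 to Igfbp7 in wt cells and 3.15% ± 0.327 in Top2β-null cells. Igfbp4 made up 1.08% ± 0.0251 in wt and 42.6% ± 0.671 in Top2β-null cells. Igfbp7 held a large share in both, with 35.2% ± 0.802 in wt and 45.9% ± 0.11 in Top2β-null cells. Igfbp2 (0% ± 0 and 4.36% ± 0.0476) and Igfbp3 (0.49% ± 0.0419 and 3.93% ± 0.201) held small shares in both, each above that of Igfbp6 in Top2β-null cells. The smallest exact permutation p that 2 libraries against 2 can give is 0.333, so that test could pass for no single share or sum and is not informative on them, and the replicate SDs stand beside each value instead.

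The summed IGFBP level per kb was 4014 and 4177 in wt and 4298 and 4335 in Top2β-null cells. The Top2β-null pair was the higher one by 1.05-fold, a log2 difference of 0.076 with a pooled replicate SD of 0.0294. Without the division by length, the summed normalized counts were 4788 and 4989.8 in wt and 11455 and 11666 in Top2β-null cells, a 2.36-fold difference, so the closeness of the sums rested on the length correction. With the longest transcript as length the log2 difference was 0.20. This sum was chosen after the gene values were seen. The log2 ratio of Igf1 to the IGFBP sum was -9.05 ± 0.151 (SD, n = 2) in wt and -8.79 ± 0.0205 in Top2β-null cells, a difference of 0.26. Its sign rested on the length correction, since sums of raw counts without it gave -0.90.

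**Figure D2:**
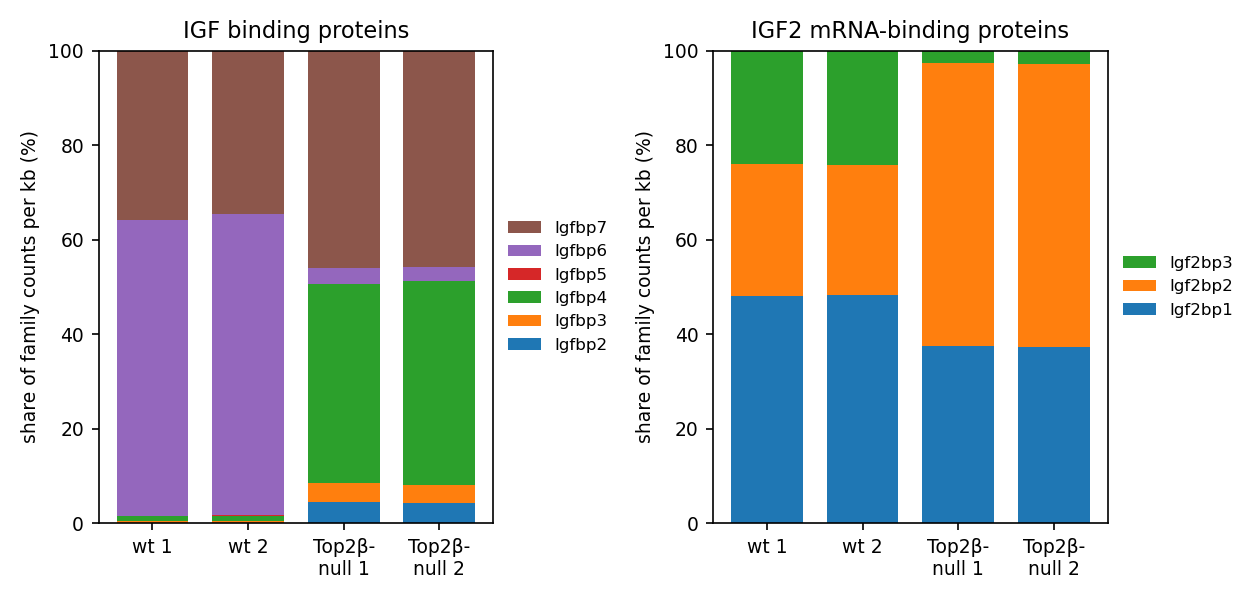
Share (%) of each gene in the summed counts per kb of exon of the IGF binding proteins (left) and of the IGF2 mRNA-binding proteins (right), stacked in each of the 2 wt and 2 Top2β-null libraries. Igfbp6 fills 63.2% of the left bars in wt and 3.15% in Top2β-null cells, Igfbp4 fills 1.08% and 42.6%, and on the right Igf2bp3 shrinks from 24.1% to 2.77% while Igf2bp2 grows from 27.7% to 59.9%.

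The genes of the mRNA-binding proteins also diverged from each other in RNA level. IGF2BP1 and IGF2BP3 are close paralogs with the same arrangement of RNA-binding domains. Igf2bp1 (chr11:95957163-96005940, minus strand) measured 17561 and 17841 normalized counts in wt and 18883 and 18715 in Top2β-null cells. The Top2β-null libraries were 1.06-fold higher (log2 fold change 0.087 ± 0.0243, adjusted p = 0.00525), and over the other settings the adjusted p ran from 2.35e-05 to 0.138. Igf2bp3 (chr6:49085223-49214957, minus strand) measured 7406 and 7507 normalized counts in wt and 1127 and 1226 in Top2β-null cells. The Top2β-null libraries were the lower pair, by 6.34-fold (log2 fold change -2.66 ± 0.0404, adjusted p = 9.86e-18). The exons of Igf2bp3 share 1529 bases with Malsu1 on the opposite strand, and Malsu1 had 2899 and 3153 counts in wt and 2053 and 2226 in Top2β-null libraries, so reads in that stretch could be split between the genes if strand was not used in counting. Igfbp7 shares 85 exon bases with Polr2b on the opposite strand, and Igf2bp1 shares 92 with Mir3063 on its own strand and 43 with Gm29202 on the opposite one.

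The paralog Igf2bp2 completed the family and measured 7821 and 7754 normalized counts in wt and 23140 and 23000 in Top2β-null cells, 2.96-fold higher in the latter (adjusted p = 1.76e-17). Per kb of exon, Igf2bp1, Igf2bp2 and Igf2bp3 made up 48.2% ± 0.25, 27.7% ± 0.335 and 24.1% ± 0.0852 of the family in wt cells. In Top2β-null cells the same genes made up 37.3% ± 0.114, 59.9% ± 0.0609 and 2.77% ± 0.175. With the longest transcript as length these were 39.1%, 29.1% and 31.8% in wt and 31.3%, 64.9% and 3.775% in Top2β-null cells. Igf2bp3 then stood above Igf2bp2 in wt, and the choice of length moved these shares by more than the SDs. The leading IGF2BP mRNA was therefore Igf2bp1 in both wt libraries and Igf2bp2 in both Top2β-null libraries. The family sum per kb was 3778 and 3810 in wt and 5215 and 5190 in Top2β-null cells, 1.37-fold higher in the latter (log2 difference 0.46, pooled replicate SD 0.00699), and was likewise chosen after the values were seen.

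Ordered by level within a genotype (counts per kb of exon and per 1000000 gene counts), the wt sequence ran Igfbp6 (22.3), Igf2bp1 (15.7), Igf1r (12.9), Igfbp7 (12.4), Igf2bp3 (7.87), Igfbp4 (0.379), Igfbp3 (0.172), Igf1 (0.0666), Igfbp5 (0.016) and Igfbp2 (0). No neighbours in this wt order overlapped between their libraries. In Top2β-null cells the order was Igfbp7 (18.2), Igf2bp1 (17.9), Igfbp4 (16.9), Igf1r (14.9), Igfbp2 (1.73), Igfbp3 (1.56), Igf2bp3 (1.33), Igfbp6 (1.25), Igf1 (0.0898) and Igfbp5 (0.0154), and only Igf2bp3 and Igfbp6 overlapped. Igfbp6 moved from the first place to the eighth and Igfbp4 from the sixth to the third. With the length of the longest transcript in place of merged exons, 4 genes in wt and 5 in Top2β-null cells took another place, and Igf1r then led in Top2β-null cells with 21.9.

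The genes around the axis were read from a list of 56 IGF pathway genes, of which 49 had enough counts to be tested. Of these, 5 were higher (Kazald1, Stc1, Grb10, Igf2bp2 and H19) and 6 were lower (Igf2r, Pappa, Htra1, Stc2, Irs2 and Socs2) in Top2β-null cells, against 5.27% higher and 4.97% lower among all features. The median log2 fold change of the list was -0.059. This list too was chosen with earlier results of these data known, so its calls are a description and not a test. By role, calls were made for 4 of 5 tested genes among the binding protein proteases and their inhibitors, for 0 of 10 among PI3 kinase and AKT genes and 0 of 9 among mTOR and FOXO genes. By the adjusted p alone, which took 32.5% of all features in each direction, 3 of the mTOR and FOXO genes were higher and 5 were lower. By this rule 6 of the PI3 kinase and AKT genes were higher and 4 were lower, with log2 fold changes from -0.66 (Pik3cb) to 0.83 (Pik3r1).

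Among ligands and receptors, Igf2, the ligand that IGFBP6 prefers, had 0 counts in both wt libraries, with 2 and 3 in the Top2β-null pair, which is at the floor of 3 counts per library in both genotypes. Ins1 and Ins2 had 0 counts in every library. Igf2r, the receptor that clears IGF2 by taking it to lysosomes, measured 51954 and 52350 normalized counts in wt and 16448 and 16143 in Top2β-null cells, 3.2-fold lower (log2 fold change -1.68 ± 0.0259, adjusted p = 1.23e-17). Insr, the insulin receptor, was not called (12402 and 12324 in wt, 8651 and 8410.7 in Top2β-null cells, log2 fold change -0.54). Of other binding proteins, Igfbp1 had 0 counts in every library, and Kazald1, a binding protein-related gene, rose 8.81-fold (42.4 and 49.3 in wt, 385 and 422 in Top2β-null cells, adjusted p = 1.09e-11).

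The proteases and their inhibitors included calls in both directions. Pappa encodes the metalloprotease that cleaves IGFBP4, and it measured 1383 and 1358 normalized counts in wt and 36.2 and 50.5 in Top2β-null cells. Pappa was thus 31.6-fold lower (log2 fold change -4.97 ± 0.104, adjusted p = 5.49e-16) in the same cells in which Igfbp4 was 41.8-fold higher. Stc1, a stanniocalcin that inhibits PAPP-A, measured 13.1 and 9.66 in wt and 1736 and 1760 in Top2β-null cells, 153-fold higher (adjusted p = 1.89e-17). Its paralog Stc2 was 2.52-fold lower (2510.2 and 2526 in wt, 992 and 1010.2 in Top2β-null cells, adjusted p = 4.51e-13), so the inhibitor genes moved in opposite directions. Htra1, a serine protease that degrades binding proteins, was 2.02-fold lower (log2 fold change -1.01, adjusted p = 7.66e-15), and its call was lost with total-count scaling (-0.94), without the count filter (-0.9955), with scaling factors from genes only (-0.99) and without the first Top2β-null library (-0.95). Pappa2 measured 68.6 and 101 in wt and 22.8 and 22.8 in Top2β-null cells and fell under the mean-count cut-off.

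Inside the cell, Irs2, an insulin receptor substrate, was 3.1-fold lower (41376 and 41272 normalized counts in wt, 13176 and 13485 in Top2β-null cells, adjusted p = 1.59e-17), while Irs1 (10570 and 10792 against 6632 and 6687, log2 fold change -0.68) stayed under the fold cut-off. Grb10, an adaptor that restrains insulin and IGF1 receptors and is an imprinted gene, had 1 and 2 counts in wt and 55911 and 59044 in Top2β-null cells. The ratio of its counts was 39305 (95% counting interval 13449 to 190600), the interval covering counting error only. Socs2, a feedback inhibitor of growth hormone signalling, was 2.72-fold lower (1343 and 1277 in wt, 471 and 493 in Top2β-null cells, adjusted p = 5.21e-12). H19, the imprinted non-coding RNA beside Igf2, measured 7.07 and 1.93 in wt and 596 and 548 in Top2β-null cells, 127-fold higher (log2 fold change 6.97 ± 0.22, adjusted p = 9.48e-14). This value rested on 7 and 2 counts in wt, and the log2 fold change was 8.10 without the first and 6.30 without the second wt library. Of the oncofetal partners listed, Lin28a had at most 1 count in every library, Hmga2 was not called (log2 fold change -0.13), and Lin28b (1.01 and 3.86 in wt, 84.9 and 68.3 in Top2β-null cells) had a mean under the mean-count cut-off and was not called.

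**Figure D3:**
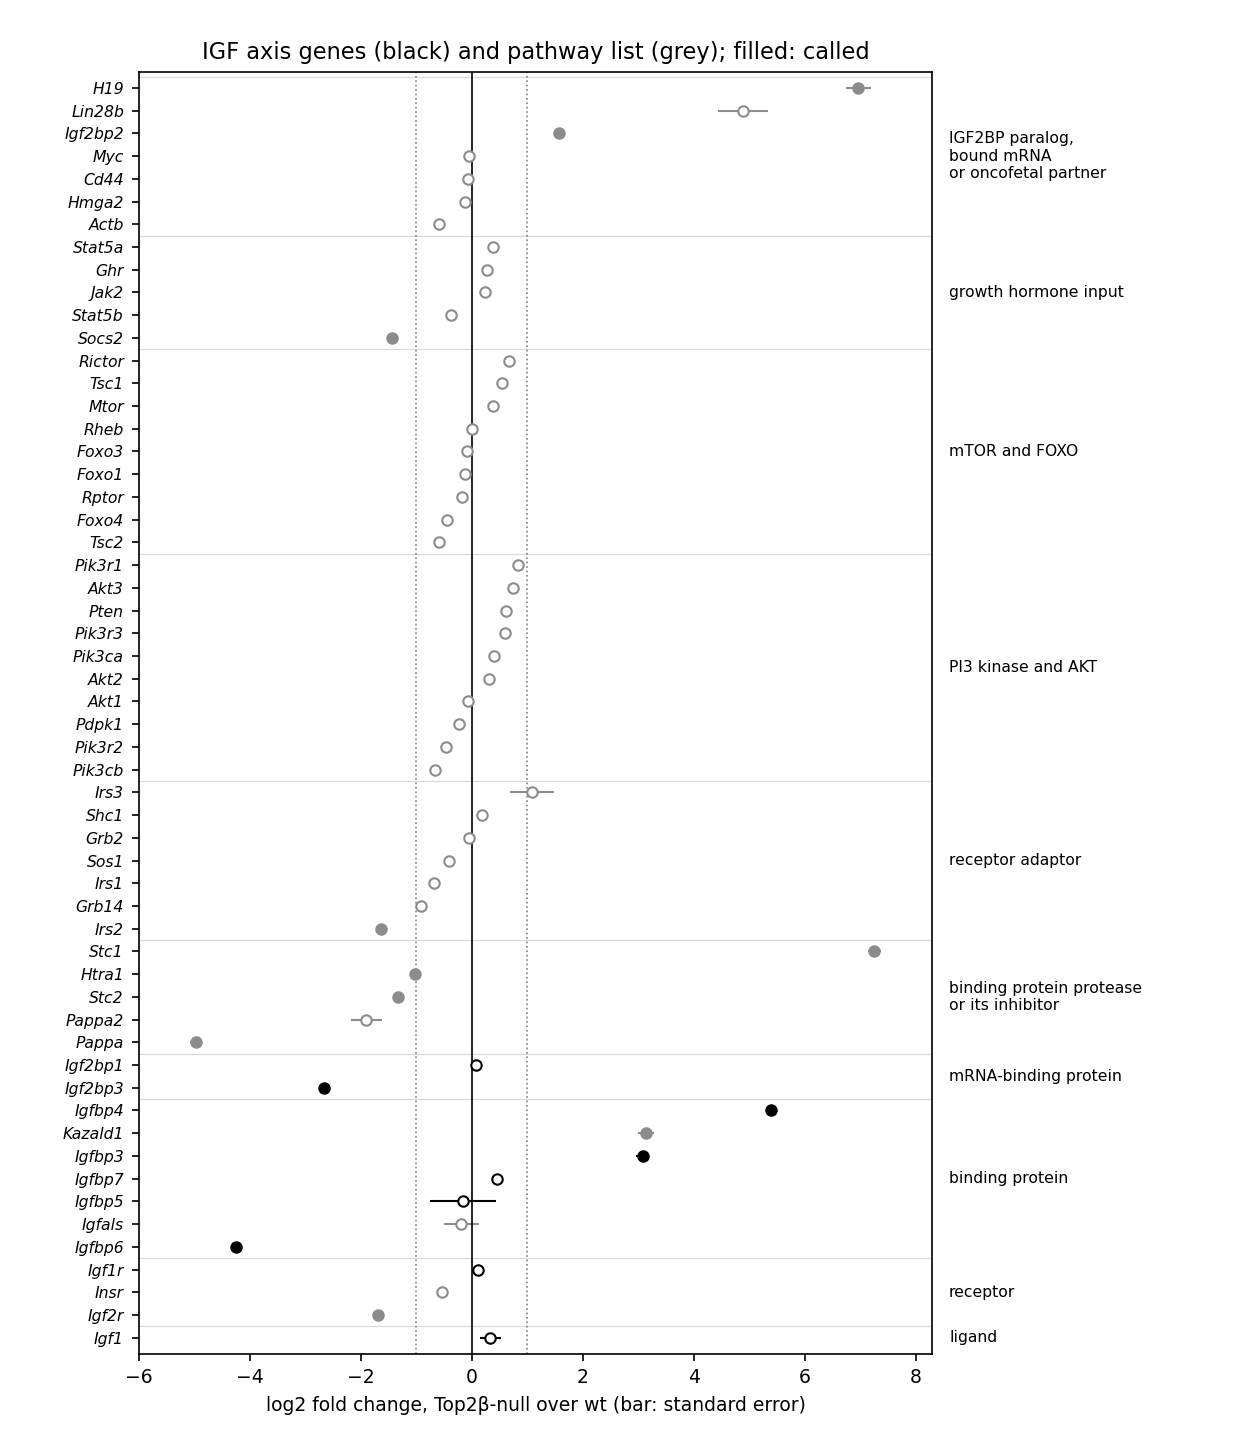
Log2 fold change (Top2β-null over wt, x axis, bars for the standard error) of the tested IGF axis genes (black) and pathway genes (grey), grouped by role on the y axis, with filled points for calls and dotted lines at the fold cut-off of 1. Igfbp2, Grb10 and Irs4, with 3 counts or fewer in each wt library, are left out, and no point is filled among PI3 kinase, AKT, mTOR and FOXO genes, whereas 4 of the 5 protease and inhibitor points are.

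Finally, the genes around each locus were read beside it. Other genes starting within 250 kb numbered 126, of which 72 were tested, and 1 was higher and 6 were lower, which is 9.72% against 10.2% of all features. None of the 15 tested neighbours of Igfbp4 was called, and none of the 3 tested neighbours of Igfbp2. Tns4, a tensin gene 48.1 kb downstream of Igfbp4, had 0 and 0.97 normalized counts in wt and 68.4 and 48.5 in Top2β-null cells (adjusted p = 1.69e-07) and missed the call through the mean-count cut-off. Igfbp2 and Igfbp5 converge on chromosome 1 with 5.46 kb between their ends, yet Igfbp2 was called higher and Igfbp5 was at 4 to 19 counts in every library. Igfbp3 had 1 tested neighbour, Adcy1, an adenylyl cyclase gene, which was also higher (475 and 473 in wt, 3847.5 and 3887 in Top2β-null cells, log2 fold change 3.03).

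Of the lower genes, Igfbp6 had 16 tested neighbours, of which Soat2, a cholesterol acyltransferase gene that starts 6.16 kb downstream, and Tns2, a tensin gene, were lower (log2 fold changes -2.88 and -1.11). By the adjusted p alone all 16 were lower, where 32.5% of all features were, with a median log2 fold change of -0.72, and all 16 were negative in DESeq2 (15 past the adjusted p) and with total-count scaling (14 past it) too. This was noticed after the values were seen. By the same rule 38 of all 72 tested neighbours were lower and 16 were higher. The 16 neighbours of Igf2bp1 numbered 4 higher and 9 lower, the 10 of Igf2bp3 numbered 2 higher and 5 lower, the 15 of Igfbp4 numbered 6 higher and 2 lower, and those of Igf1 (2 of 3) and Igf1r (2 of 2) were lower with none higher. Soat2 measured 391 and 404 normalized counts in wt and 53.9 and 53.5 in Top2β-null cells. Igf2bp3 had 10 tested neighbours, and Gpnmb, a transmembrane glycoprotein gene 178 kb away, was the called one (3789 and 3863 in wt, 120.1 and 123 in Top2β-null cells, log2 fold change -4.98). Abi3 and Phospho1 near Igf2bp1 (log2 fold changes -1.87 and -1.96) and Synm near Igf1r (-1.51) were lower beside genes that were themselves not called. Gm53, a non-coding RNA gene near Igf2bp1, had 10.1 and 7.73 normalized counts in wt and 155 and 179 in Top2β-null cells (adjusted p = 6.62e-10) and, like Tns4, missed the call through the mean-count cut-off. Ttll6 near Igf2bp1, also higher, missed the call the same way, and so did more genes that were lower. These were Gm45102 near Igf1r, Gm39662 near Igfbp2 and Igfbp5, Gm36026 and Krt8 near Igfbp6, and Gm18010 and Gm19253 near Igf2bp3. Near Igf2bp1 they were B4galnt2, Gm11534, Gm11527 and 4833417C18Rik. No neighbour of Igf1, Igfbp5 or Igfbp7 among those outside the axis was called.

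**Figure D4:**
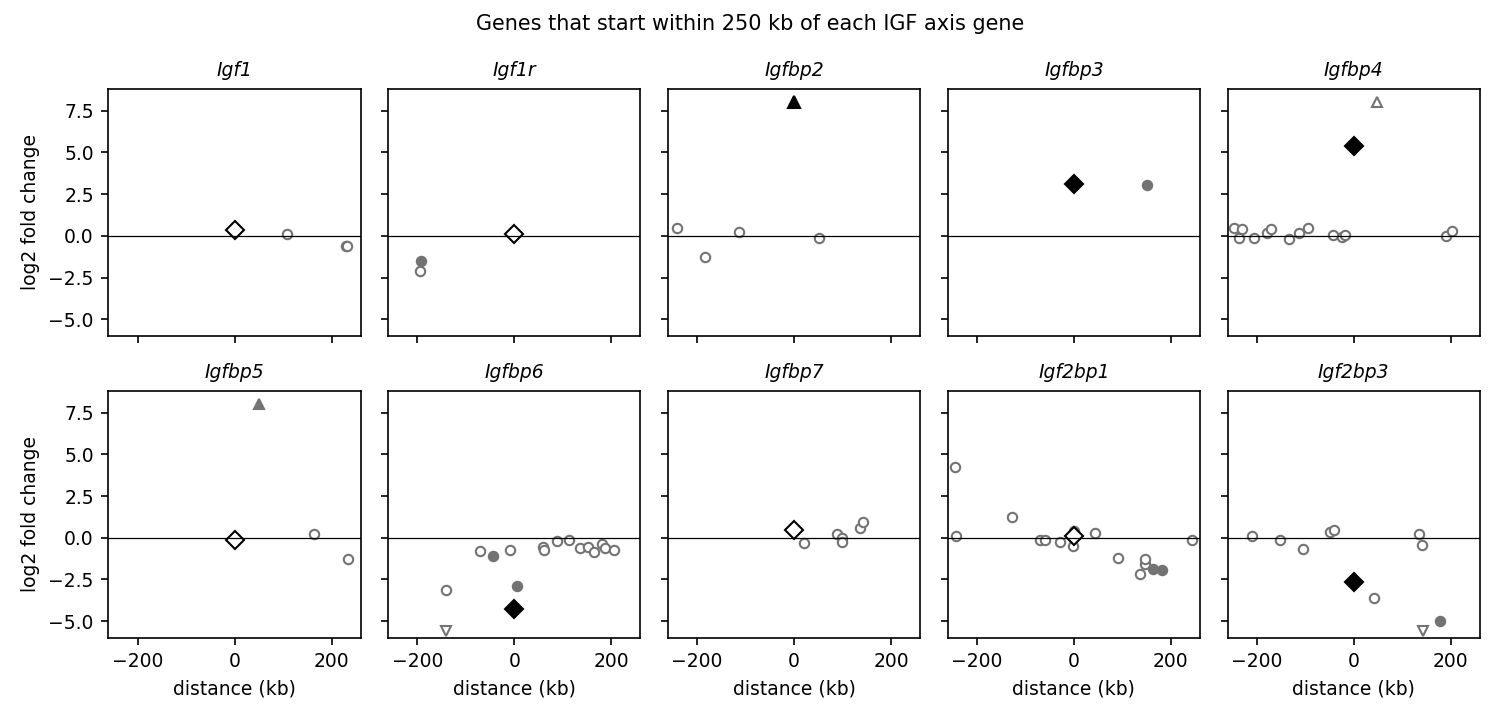
Log2 fold change (Top2β-null over wt, y axis) of the tested genes that start within 250 kb of each IGF axis gene, by distance in kb along its direction of transcription (x axis), with the axis gene itself as a black diamond at 0, other genes in grey and calls filled. Triangles give only the direction for genes with 3 counts or fewer in every library of a genotype, and filled neighbours are few at every locus, with 2 beside Igfbp6, 2 beside Igf2bp1 and 1 each beside Igf1r, Igfbp3 and Igf2bp3, besides Igfbp2 in the Igfbp5 panel.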

How the data were processed

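Total RNA was sequenced from 2 wt and 2 Top2β-null MEF libraries, prepared with a stranded kit after removal of ribosomal RNA. Paired reads were trimmed by the authors (Trim Galore!) and placed on mm10 (GRCm38) with STAR, keeping reads with many alignments, and TEtranscripts gave the counts. The deposited table holds these raw counts, in whole numbers and without normalization, for 54842 genes and 1562 repeat families. Whether counting used strand is not given in the sources used here, and reads shared by overlapping genes or close paralogs may be divided between them.

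The 26566 features that reached 10 counts in 2 or more libraries were fitted with edgeR 4.0.16 (R 4.3.3), by the quasi-likelihood test with TMM factors and Benjamini-Hochberg adjustment over all features. Calls required an adjusted p below 0.05, a log2 fold change beyond 1 and a mean normalized count above 100, the study's cut-offs. The SE beside a log2 fold change is the size of that change divided by the square root of its quasi-likelihood F statistic. It thus rests on a variance moderated over all features and not on the libraries of that gene alone. For display, each library's counts were brought to a common effective size, the geometric mean of all 4. Library totals of 133116830 to 149647278 counts leave genes with as few counts as Igfbp5 imprecise. Intervals and floors cover counting error only. Libraries of a genotype were not duplicates of each other, with chi-squares of 3.65 (wt) and 5.07 (Top2β-null) times their degrees of freedom. Symbols and coordinates came from a later GENCODE release of the same build, with 54495 of 54842 identifiers matched. Levels per kb used merged exons.

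The members and lists were chosen with earlier results of these data known. Named are Top2b, all members, Igf2, Igf2r, Insr, Igf2bp2, the pathway genes called (up to 12 by size of change) and the neighbours called within 250 kb. Genes named after their values were seen are Irs1, Irs4, Tns4, Gm53, Pappa2, Lin28a, Lin28b, Hmga2, Pik3cb, Pik3r1, Ins1, Ins2 and Igfbp1. So are the neighbours Ttll6, Gm45102, Gm39662, Gm36026, Krt8, Gm18010, Gm19253, B4galnt2, Gm11534, Gm11527 and 4833417C18Rik. Alternatives were DESeq2 1.42.0, total-count scaling, TMM factors from genes only, no filter, at least 100 counts in every library, the adjusted p alone, a replicate block, longest-transcript length, windows of 100 and 500 kb, and leaving out each library. The fit was tested on simulated data.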

Additional observations from a re-analysis of the deposited data

How the results depend on the processing

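Direction and call were kept in 56 of 56 member values with all libraries kept and in 35 of 36 with 1 library left out. The exception was Igfbp5, whose log2 fold change was 0.22 without the first Top2β-null library (-0.87 without the first wt library, and not tested without either of the other two, when it missed the count filter). The same 5 members were called with DESeq2, total-count scaling, TMM factors from genes only, no filter and the replicate block. Without either Top2β-null library 4 of them were called, since Igfbp2 was then not tested. Where 1 library was left out, the lone library was assumed to vary like the other genotype.

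With at least 100 counts required in every library, 1 member, 1 pathway gene and 825 features were called higher, because genes low in wt were no longer tested. By the adjusted p alone, 6 members, 21 pathway genes, 16 neighbours and 8627 features were higher, and 24 pathway genes, 38 neighbours and 8630 features were lower. Over the libraries left out, 3 to 5 pathway genes were called higher, with 3 without either Top2β-null library, when Grb10 and H19 were no longer tested, and 1 to 2 neighbours, with 2 without either wt library. Total-count scaling called 2 neighbours higher. A window of 100 kb held 0 higher and 2 lower neighbours, and one of 500 kb held 3 and 13.

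With the longest transcript as length, Igfbp4 made up 44.7% and Igfbp7 42.1% of the IGFBP level in Top2β-null cells, the reverse of their order by merged exons. By that length 4 and 5 members changed place in the orders of wt and Top2β-null levels. The log2 difference of the IGFBP sum was then 0.20 and of the IGF2BP sum 0.41. Without a length correction these were 1.24 and 0.39. These sums, chosen after seeing the data, differed by 0.15 and 0.53 with total-count scaling, and the IGF2BP sum by 0.47 with factors from genes only. The ratio of Igf1 to the IGFBP sum reversed to -0.90 on raw counts without length. The cause of these changes was not tested unless stated.

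The shared replicate numbers were not shown to pair the libraries, since the deviations of same-numbered libraries correlated by 0.0197 over 17952 features. With the replicate block, 3 members were higher and 2 lower, 1400 features were higher and 1321 lower, and the log2 fold change of Igfbp4 was 5.38 and of Igf1r 0.11.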
